A study of Mus musculus with 18 samples.

Results

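The 2 small RNA count tables of a study of mouse embryonic stem cells hold, beside mature microRNAs and tRNAs, a large class of rows whose name column reads Fragment. A Fragment row is a RefSeq transcript or a genomic region on which small RNA reads were counted, listed apart from the table's own microRNA and tRNA rows. Whether its counts leave out the reads of those rows is not stated in the sources used here. The rows described here are the Fragment rows with a mean count of at least 10 over the 6 libraries of a table. They number 3495 of 14831 rows in the table of the small RNA libraries and 6979 of 27901 rows in the small RNA table of the RNAome libraries, and 1685 of them are in both tables. The members were thus chosen by their mean counts, the same counts that are described below: the lowest mean count inside was 10 and the highest outside 9.83 in each table, with 136 small RNA members between 10 and 11 and 165 rows just below, and 367 and 447 in the RNAome table.

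The cells were C57BL/6 embryonic stem cells deficient in HPRT, a purine salvage enzyme, at passage 19 to 22. Cultures spent 2 passages on feeder cells and 1 on gelatin, and then received 2.5 µM cisplatin, a platinum compound that crosslinks DNA, or DMSO, its solvent, in equal volume. All 6 samples, the controls included, carry the HPRT deficiency, and the time of exposure is not given here. Total RNA of 3 cisplatin samples (8.3.3, 8.4.3, 8.5.3) and 3 control samples (8.4.16, 8.5.16, 8.6.16) went into each library type, and per-library values are always given in that order. Nothing in the labels says whether the samples of a group were separate cultures, so a p-value here measures only how far these samples differ among themselves, a spread that may be technical. In the mRNA libraries of the same samples Pou5f1, the defining factor of these cells, lay at 1189 to 1253 CPM (reads scaled to library size, with TMM as a factor for composition), while the feeder fibroblast genes Col1a1 and Thy1 lay at 14.6 to 32.3 and 6.91 to 10.7 CPM and none of the 5 feeder markers in the table changed with cisplatin. Of 8 embryonic stem cell markers 6 fell, from −0.70 on the log2 scale for Zfp42 and −0.61 for Esrrb to −0.28 for Tdgf1 (adjusted p at most 0.00012, background 19.3% lower over mRNA genes). Pou5f1 (0.00) and Dppa5a (0.03) were not called. What part such a change in the cells has in the results below was not tested.

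Small RNA libraries take RNA through adapter ligation without cutting it first, so they favour short molecules with the ends that Drosha, Dicer or other nucleases leave. RNAome libraries start from rRNA-depleted RNA that is broken mechanically, so a short read there can be a piece of any long RNA. Many stable short RNAs are cut from longer precursors: microRNAs from hairpins, small nucleolar RNAs (snoRNAs) from introns of host genes, and tRNA-derived pieces from tRNAs. Box C/D snoRNAs guide ribose methylation of rRNA and carry a C box near the 5′ end and a D box near the 3′ end, and replication-dependent histone mRNAs end in a stem-loop in place of a poly(A) tail.

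The clearest case of such a precursor among the members was Snhg1, a host gene whose spliced RNA has no known protein product and whose introns hold a run of box C/D snoRNAs. Of its introns, 6 appear as separate Fragment regions of 175 to 292 bp on chromosome 19 (NCBIM37, the assembly of mm9), each around 1 annotated snoRNA (GENCODE vM1). The annotated snoRNA of each is shown 5′ to 3′ on the plus strand, with a C box (TGATGA in the first 20 bases) and the last D box (CTGA in the last 15 bases) in capitals where these letters occur.
SNORD26, chr19:8798741-8798815: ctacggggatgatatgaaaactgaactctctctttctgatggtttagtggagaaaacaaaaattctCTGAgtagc
SNORD27, chr19:8799021-8799092: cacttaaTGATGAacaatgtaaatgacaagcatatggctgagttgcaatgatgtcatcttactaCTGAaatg
SNORD28, chr19:8799358-8799433: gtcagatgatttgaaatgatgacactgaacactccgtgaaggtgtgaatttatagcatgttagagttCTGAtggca
SNORD29, chr19:8799582-8799646: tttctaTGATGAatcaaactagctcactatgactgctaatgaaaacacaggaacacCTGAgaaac
SNORD30, chr19:8799831-8799899: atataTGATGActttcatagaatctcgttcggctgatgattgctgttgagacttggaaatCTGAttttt
SNORD31, chr19:8800084-8800150: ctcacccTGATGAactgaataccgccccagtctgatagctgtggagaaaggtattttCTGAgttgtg

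Over the members, 38 regions of 300 bp or less in the small RNA table and 35 in the RNAome table held an annotated snoRNA. TGATGA, on either strand, was in 23 of the 38 short snoRNA-holding regions (60.5%) and in 17 of 101 other member regions of 300 bp or less (16.8%). Of 36 annotated snoRNAs in such regions, 19 had TGATGA in the first 20 bases, 26 had CTGA in the last 15 and 17 had both. In the small RNA table the median level of the 38 regions was 357.2 CPM, against 5.26 CPM in the 77 other short regions.

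The 6 Snhg1 introns differed among themselves, and in a different order in each library type. In the small RNA libraries the SNORD29 intron was the highest, at 5607, 2323 and 5596 CPM with cisplatin and 3020, 5692 and 6526 CPM in controls. The SNORD30 intron followed at 2918, 1957 and 2310 against 2055, 2385 and 2654 CPM. The other 4 lay between 543.4 CPM (SNORD31, control 8.4.16) and 1338 CPM (SNORD28, control 8.5.16) in every library. In the RNAome libraries the SNORD27 intron led instead, at 2000, 6648 and 12261 against 1764, 4030 and 3910 CPM. None of the 6 regions was called in either table, and treatment groups overlapped for each.

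**Figure D1:**
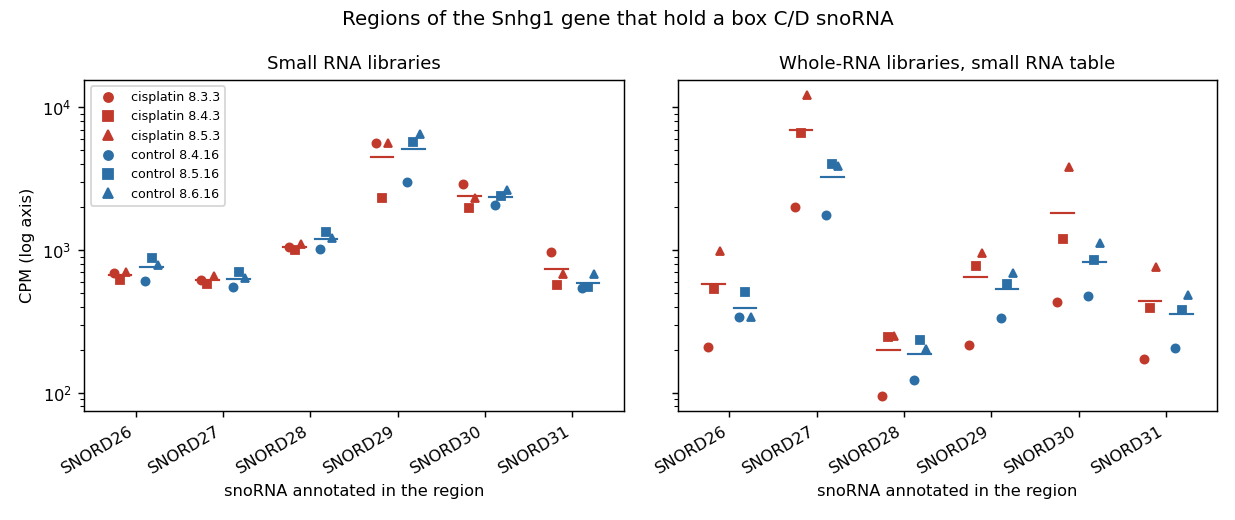
Level of the 6 Snhg1 introns that hold a box C/D snoRNA in each library (points, CPM on a log axis; bars, group means) for the small RNA libraries (left) and the RNAome (whole-RNA) libraries (right). SNORD29 is highest on the left and SNORD27 on the right, and cisplatin 8.3.3 is the lowest library of every column on the right except SNORD27, where control 8.4.16 is lower.

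Libraries of a table differed in ways that treatment does not set. Totals ran from 4826269 to 13428891 counts in the small RNA and from 1587446 to 4515956 in the RNAome table, and members held 33.2% to 46.1% and 57.8% to 76.4% of them. In the small RNA table control 8.5.16 stands apart: 74 members were over 10 times higher there than in each of the other 5 libraries, which happened for no other library. These 74 summed to 73821 CPM in control 8.5.16 and to between 2599 and 3884 CPM in the others, and 13 of them lie on the X chromosome, among them the regions of the Slx and Gm5935 gene clusters. Tested over all 6 libraries none of the 74 was called (lowest adjusted p = 0.134), although their fitted log2 fold changes reach −6.94. In the RNAome table the TMM factor ran from 0.633 (cisplatin 8.5.3) to 1.52 (cisplatin 8.3.3), and 5 members were over 10 times higher in control 8.4.16 than in each other library. Results that rest on these libraries are given with and without them below.

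The 74 members include some of the most abundant rows of the RNAome table. The intergenic region chr9:3199814-3335230 gave 81.2, 63.5 and 101.4 against 64.4, 4461 and 84.1 CPM in the small RNA libraries, and 8717 to 33309 CPM in the RNAome libraries. Of the 74, 67 are tested members of the RNAome table, with a median of 935.6 CPM there against 16.5 CPM over the other 5 small RNA libraries. What sets control 8.5.16 apart in these rows was not tested.

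By source, regions made up most members: 2870 of the small RNA members (1348 within introns, 329 between genes and 1192 of mixed context) and 5767 of the RNAome members (2593, 739 and 2434), and 1 region in each table was on the mitochondrial genome. The small RNA members further held 312 microRNA hairpin entries, 86 snoRNA entries, 20 long non-coding RNAs, 179 coding transcripts and 10 rRNA entries. The RNAome members held 88 hairpins, 100 snoRNA entries, 16 long non-coding RNAs and 972 coding transcripts. Regions took 57.1% of member counts in the small RNA table and 88.3% in the RNAome table, hairpins 16.3% and 3.47%, and snoRNA entries 8.98% and 0.682%. Rows are not all independent: 202 small RNA members in 49 groups hold equal counts, and the 312 hairpins, 111 of which are entries of Mir669a genes, reduce to 209 distinct rows.

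A few members took much of the signal. The 6 highest held 27.2% of member counts in the small RNA table and 22.2% in the RNAome table. In both, the highest was chr17:39981191-40343962, which spans the genes AY036118 and Gm7148, at 34502, 35220 and 37133 against 19755, 66320 and 19375 CPM in the small RNA libraries. Of its controls, 8.5.16 lay above and the others below every cisplatin library, and the fold change over all 6 was 0.02 on the log2 scale. Without control 8.5.16 it was called 0.84 higher with cisplatin (adjusted p = 0.0283). Next came the entry of Mir182, a microRNA gene clustered with Mir96, at 24895 to 28916 CPM, and an intron of the integrin gene Itga9 at 10702 to 20024 CPM. D7Ertd143e, the long RNA that hosts the miR-290 family of embryonic stem cell microRNAs, lay at 10627 to 12188 CPM and its groups did not overlap (log2 fold change −0.13, adjusted p = 0.668).

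A non-coding entry that matches no RefSeq record used here was also among the 6 highest small RNA members, at 14443, 9056 and 10187 against 9786, 11043 and 15076 CPM (−0.09, adjusted p = 0.922), and is not named. Among the snoRNA and structural RNA entries Snord12 lay at 3771 to 6882 CPM in the small RNA libraries, Rmrp, the RNA of RNase MRP, at 344.1 to 664.4 CPM, and Rpph1, the RNA of RNase P, at 93.7 to 210.2 CPM. Rn4.5s ranged from 105.7 to 350.5 CPM and telomerase RNA (Terc) from 15.5 to 32.2 CPM. In the RNAome libraries Terc lay at 36.7 to 80.9 CPM, and Snord12 gave way to Snord69, at 170.0 to 1051 CPM. Among these class leaders none was called in either table. A 74 bp region within an intron of Eif4g1, the scaffold of the cap-binding complex, was among the 6 highest of the RNAome table at 9633, 35672 and 63867 against 7498, 20934 and 22605 CPM. It is short enough to show whole (plus strand, NCBIM37).
Eif4g1 intron, chr16:20684255-20684328: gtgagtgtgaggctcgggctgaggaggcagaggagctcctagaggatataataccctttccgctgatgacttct

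Its groups overlapped, with cisplatin 8.3.3 below 2 of the controls, and its log2 fold change was 1.10 (SE 0.66, adjusted p = 0.594).

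Share of counts was compared first, as a single value per library. Members held 36.3% ± 2.77 of counts with cisplatin and 39.8% ± 6.13 in controls in the small RNA table (SD, n = 3, two-sided exact permutation p = 0.4). In the RNAome table they held 70.7% ± 5.37 against 63.1% ± 5.11 (SD, n = 3, exact permutation p = 0.2). Hairpin entries did not overlap in the RNAome table, at 1.81%, 1.79% and 2.08% against 2.65%, 3.43% and 2.50%, and neither did coding transcripts in the small RNA table, at 2.94%, 2.81% and 3.33% against 3.49%, 3.46% and 3.62%. Both gave exact permutation p = 0.1, the smallest that 3 against 3 allows, and adjusted p = 0.42 and 0.7 over the classes of each table.

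Row by row, in the small RNA libraries 45 members rose and 28 fell with cisplatin of 3452 that passed the filter on low counts (edgeR quasi-likelihood test, adjusted p under 0.05 over all 11715 rows tested). That is 2.11% of the members, against a background of 3.65% of all rows tested, 3.01% higher and 0.640% lower. The members' median log2 fold change was −0.07, against −0.03 over all rows. The calls depend on single libraries: no member was called when cisplatin 8.4.3, cisplatin 8.5.3 or else control 8.6.16 was left out (289, 341 and 434 had an unadjusted p under 0.05), without cisplatin 8.3.3 19 were, all higher, without control 8.4.16 another 19 (11 higher, 8 lower), and without control 8.5.16, the library that stands apart, 108 were (65 higher, 43 lower), 70 of the 73 among them. With equal rows counted once and microRNA and tRNA rows summed, fewer rows passed and 15 members were called. Every one of the 73 kept its sign in each left-out fit, and in none did the treatment groups overlap. Over all 3452 tested members the groups did not overlap in 567. Both traits go with being called, so they add no support to the calls.

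**Figure D2:**
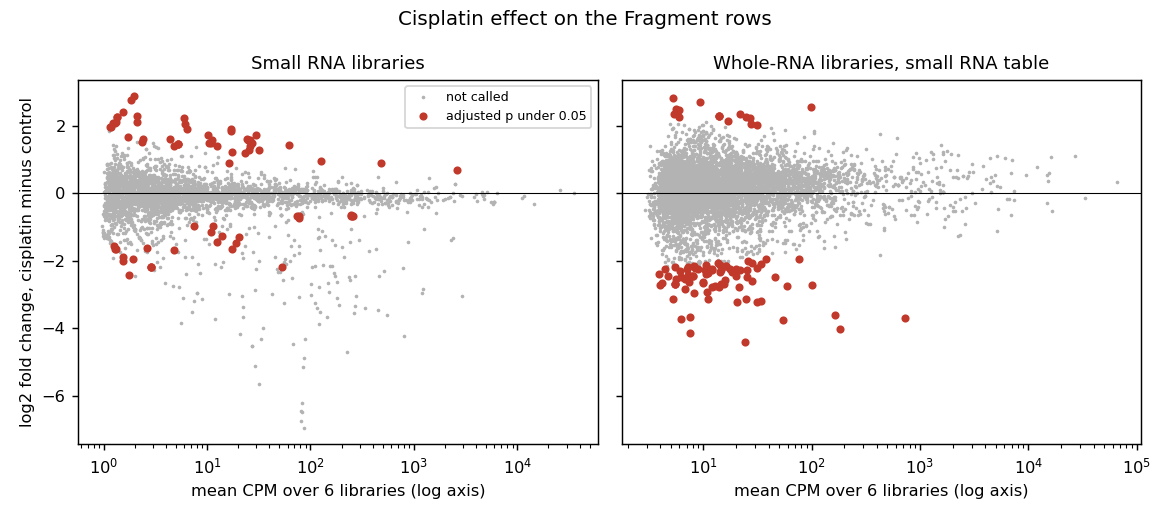
Log2 fold change with cisplatin of every tested member against its mean CPM (log axis) in the small RNA libraries (left) and the small RNA table of the RNAome (whole-RNA) libraries (right), with called members in red. The small RNA panel has 45 increases and 28 decreases among the red points, and its grey points down to −6.94 include the 74 members high in control 8.5.16. The RNAome panel has 16 increases and 81 decreases.

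Of 312 microRNA hairpin entries, 6 rose and none fell in the small RNA libraries (background 3.01% higher and 0.640% lower), with a median log2 fold change of −0.03. How reads were divided between a hairpin entry and the rows of its mature microRNAs is not stated in the sources used here. Mature microRNAs of the 6 entries are shown with the seed (bases 2 to 8, which pair with targets) in capitals, from RefSeq (GRCm38.p6). Their sequences show which of them share targets by seed. The 3p arms of Mir96, Mir34a, Mir99b and Mir125a are left out.
miR-200a-5p: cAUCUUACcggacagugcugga
miR-200b-5p: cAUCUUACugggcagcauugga
miR-200b-3p: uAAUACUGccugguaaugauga
miR-200a-3p: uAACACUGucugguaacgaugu
miR-96-5p: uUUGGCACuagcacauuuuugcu
miR-34a-5p: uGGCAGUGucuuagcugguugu
miR-99b-5p: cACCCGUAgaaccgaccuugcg
miR-125a-5p: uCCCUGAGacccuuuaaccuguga

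Mir200a and Mir200b are neighbours in 1 cluster, and their 5p arms share the seed AUCUUAC. The Mir200b entry was measured at 15.4, 15.2 and 15.6 CPM with cisplatin and 5.68, 5.95 and 4.94 CPM in controls. It rose by 1.48 on the log2 scale (SE 0.18, adjusted p = 0.0151). The Mir200a entry was measured at 16.2, 22.2 and 16 against 7.01, 6.73 and 7.05 CPM, a log2 fold change of 1.39 (SE 0.20, adjusted p = 0.0221). In both, every cisplatin library was over 2 times the highest control.

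Mir96, from the cluster of Mir182, gave 24.7, 26.9 and 21.3 against 11.5, 11.0 and 9.07 CPM, a rise of 1.21 (SE 0.18, adjusted p = 0.0242). Mir34a, a microRNA gene induced by p53 after DNA damage, gave 24.3, 28.8 and 44.1 against 16.6, 13.6 and 11.7 CPM (1.21, SE 0.26, adjusted p = 0.046). Mir99b and Mir125a are transcribed together. Mir99b gave 162.7, 180.9 and 152.8 against 105.6, 76.4 and 73.6 CPM (0.96, adjusted p = 0.0373). Mir125a gave 650.1, 660.5 and 567.1 against 426.5, 313.6 and 275.0 CPM (0.89, adjusted p = 0.0453). Groups were separate in all 4.

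The mature microRNAs did not all go with their hairpin entry. In a fit with 1 row for each mature name, miR-200a-5p gave 42.7, 45.5 and 43.4 against 14.2, 14.2 and 14.2 CPM and rose by 1.63 (adjusted p = 0.0233). miR-200b-3p gave 1817, 2092 and 1602 against 713.3, 647.3 and 489.5 CPM and rose by 1.58 (adjusted p = 0.0362). The other arms of these hairpins were not called. For miR-200a-3p, the more abundant arm at 103.5, 133.0 and 108.4 against 85.8, 81.0 and 72.4 CPM, the change was 0.53 (adjusted p = 0.197). For miR-200b-5p it was 1.38 (adjusted p = 0.0923). For miR-99b-5p the log2 fold change was 1.44 (adjusted p = 0.0795), for miR-96-5p 1.05 (0.0846) and for miR-34a-5p 0.55 (0.192). For miR-125a-5p, at 759.3, 911.6 and 782.5 against 891.6, 787.2 and 872.4 CPM, it was −0.06 (adjusted p = 0.921), so its groups overlapped where those of the Mir125a entry did not. The 3p arms changed by 0.015 for miR-96 (adjusted p = 0.987), 1.30 for miR-34a (0.205), −0.17 for miR-99b (0.752) and 0.055 for miR-125a (0.93). In that same fit the Mir200b, Mir200a and Mir96 entries were called, and Mir34a, Mir99b and Mir125a were not (adjusted p = 0.1, 0.0944 and 0.1).

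**Figure D3:**
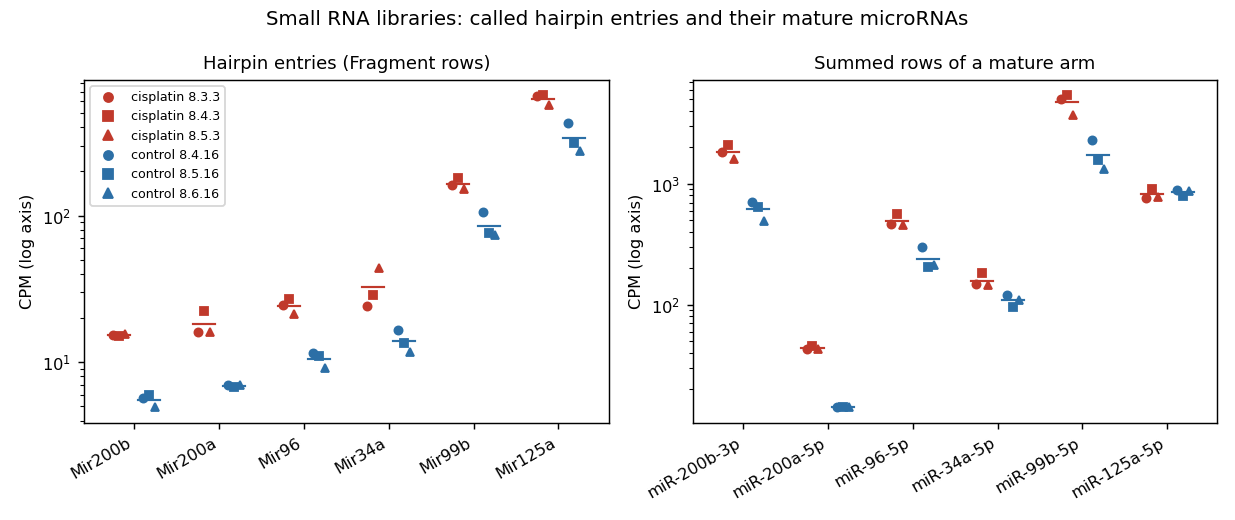
CPM (log axis) in each small RNA library of the 6 called hairpin entries (left) and of 1 mature microRNA of each (right), with points for libraries and bars for group means. The other mature microRNA of each entry is not shown. Cisplatin points lie above all control points for each entry, while the groups of miR-125a-5p overlap.

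Grouped after their values were seen, 40 small RNA members were transcripts of histone genes or regions that overlap or directly border one. Most of them are at the Hist1 cluster on chromosome 13. Stretches that only border a histone gene are thus counted too, and their part in the counts and medians was not separated. Of 38 tested, 6 fell and none rose (background 0.640% lower), 36 had a log2 fold change below 0, and the median was −1.34, against −0.03 over all rows. Without control 8.5.16 9 fell and without control 8.4.16 3 did, but none was called without any 1 of the cisplatin libraries or without control 8.6.16, nor with equal rows counted once. The largest in count was the region of Hist1h2bh and Hist1h3g (chr13:23627779-23634840), at 18.9, 13.0 and 25.3 CPM with cisplatin and 62.5, 72.9 and 125.6 CPM in controls. It fell by 2.20 on the log2 scale (SE 0.34, adjusted p = 0.0242). The lowest control was over 2 times the highest cisplatin library.

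A region of Hist1h2bk (chr13:22128137-22132684) gave 5.99, 7.05 and 12.7 against 23.2, 24.9 and 30.9 CPM, a fall of 1.64 (adjusted p = 0.0321). The region of Hist1h4c (chr13:23788592-23790006) gave 9.79, 6.7 and 14.0 against 21.8, 29.0 and 33.5 CPM (−1.48, adjusted p = 0.0407). The region of Hist1h4j (chr13:21827277-21842062) gave 11.8, 9.07 and 15.2 against 22.9, 30.2 and 34.0 CPM (−1.28, adjusted p = 0.0364). H2ac11, an H2A transcript, gave 6.34, 4.93 and 8.9 against 14.8, 17.8 and 22.0 CPM (−1.46, adjusted p = 0.0337). In Hist1h2bq (chr13:21899997-21901663), with at most 4.21 CPM in a library, the fitted log2 fold change was −2.43 (adjusted p = 0.0497). Control 8.6.16 was the highest library in all 6 and no member was called without it, with the histone median then at −0.90. Histone genes are near-identical copies, so reads may be split between them.

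The same histone rows also occur in the tables of long RNA of the other library types, which were fitted over all their rows. In the long table of the RNAome libraries 25 of 40 fell and none rose (background 1.31%, with 0.594% lower), with a median of −1.03. In the mRNA libraries 8 of 21 fell and none rose (background 19.8%, with 9.89% lower), with a median of −0.48. The Hist1h2bh and Hist1h3g region changed by −1.40 in the former (adjusted p = 0.00198) and by −1.78 in the latter (adjusted p = 0.00022). In the small RNA table of the RNAome libraries none of 43 tested histone members fell. There the 1 that rose was chr3:96001510-96023838, a region over Bola1 and Gm15444 that borders an exon of Hist2h2ab. It gave 35.0, 31.8 and 42.3 against 5.8, 7.01 and 8.52 CPM (2.36, adjusted p = 0.0159). These tables come from the same 6 RNA samples, so their values stand side by side and are not independent.

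The imprinted Dlk1-Dio3 locus on chromosome 12 makes the maternal non-coding RNAs Meg3, Rian and Mirg, which host snoRNAs and a long microRNA cluster, and it too was grouped after its values were seen. Of 68 members of the small RNA libraries, 6 fell and none rose (background 0.640% lower), with a median of −0.10. Of the 6, 3 are rows of Meg3 with equal counts, and with equal rows counted once and microRNA and tRNA rows summed 2 of 64 were called. Meg3 gave 0.807, 0.881 and 1.58 against 5.05, 4.23 and 4.78 CPM and fell by 2.18 (SE 0.31, adjusted p = 0.022). Its controls were all over 2 times the cisplatin libraries. A region that holds Mir544 (chr12:110966413-110971980) gave 8.99, 7.75 and 7.51 against 18.5, 17.1 and 22.7 CPM (−1.26, adjusted p = 0.0242). Unannotated stretches nearby, chr12:110951788-110953527 (−1.69, adjusted p = 0.0364) and chr12:110962059-110962522 (−1.16, adjusted p = 0.0461), make up the 6. Of the 41 hairpin entries of the locus none was called, with a median of −0.04.

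For Meg3 the long tables showed no such fall: the log2 fold changes of its 3 transcripts lay between −0.19 and 0.00 in the mRNA table and between −0.34 and 0.00 in the RNAome long table, none called. The Mir544 region was called in the RNAome long table (−1.69, adjusted p = 0.00191), and Mirg, the microRNA host, in the mRNA table (−1.13, adjusted p = 7.42e-06). In the small RNA table no member of the locus was called with any 1 cisplatin library or control 8.6.16 left out, 3 were without control 8.4.16 and 6 without control 8.5.16.

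**Figure D4:**
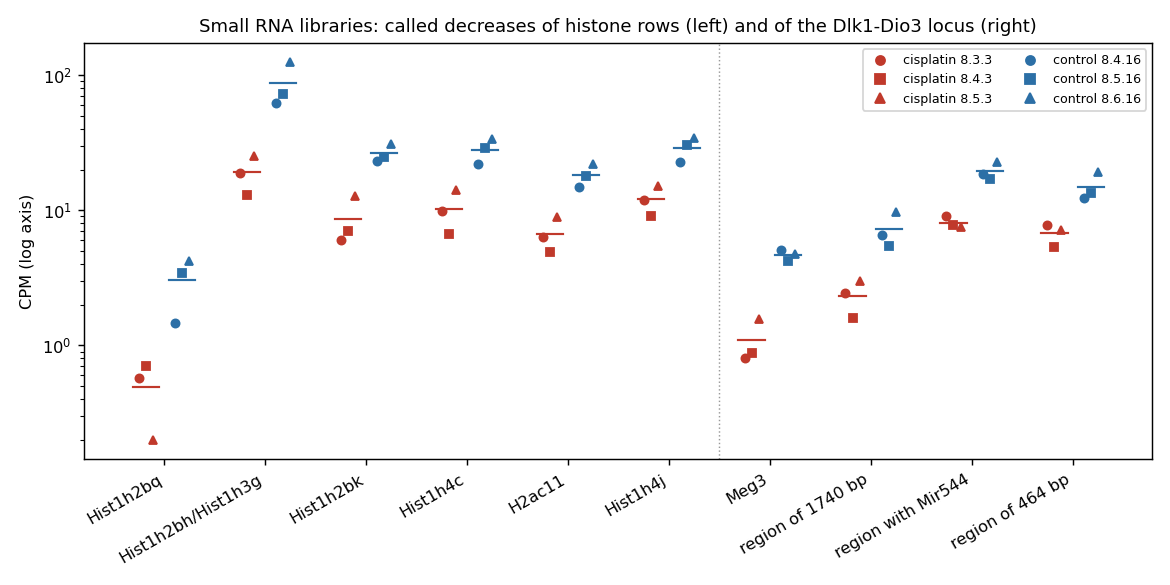
CPM (log axis) in each small RNA library of the called histone rows (left of the dotted line) and the called Dlk1-Dio3 rows (right), with points for libraries and bars for group means. All control points lie above all cisplatin points in each column, and control 8.6.16 is the top point of the 6 histone rows.

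Of 2828 regions tested in the small RNA table, 34 rose and 23 fell (background 3.01% higher and 0.640% lower). The largest fitted increases were in introns of Trio, a guanine nucleotide exchange factor (2.87, adjusted p = 0.0186), Taok3, a kinase (2.77, 0.022), and Dazap1, an RNA-binding protein (2.42, 0.0228). Each of these 3 had exactly 5 counts in every control, and Trio had 29, 49 and 13 counts with cisplatin. The value 5 occurs 1965 times among Fragment rows, against 334 for 4 and 911 for 6, and it is the lowest value among all other rows of that table. No source used here states how that value arose. In all, 8 of the 45 increases and 4 of the 28 decreases have one whole group at 5 or below. Their fold changes depend on how that value was set. The 4 decreases are Birc6, a ubiquitin ligase, and introns or regions of Mitf, Tfdp2 and Rif1.

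Among rows with both groups above 5 counts, low adjusted p-values were found for regions around Gm2464 and in an intron of Ccdc91. The Gm2464 region (chr3:13472793-13776824) gave 25.6, 28.2 and 26.1 against 8.2, 6.1 and 7.05 CPM, a rise of 1.90 (SE 0.18, adjusted p = 0.012). The Ccdc91 intron (chr6:147486003-147511156) gave 25.9, 29.3 and 25.5 against 8.9, 5.95 and 7.37 CPM (1.85, adjusted p = 0.0135). An intron of 4831426I19Rik gave 8.99, 9.07 and 11.5 against 2.52, 1.72 and 1.94 CPM (2.22, adjusted p = 0.0135). Arhgap42, a GTPase activator, gave 8.99, 10.8 and 9.88 against 2.87, 1.56 and 2.51 CPM (2.05, adjusted p = 0.0154). The highest in level was an intron of Gnb1l (chr16:18499234-18540527), at 3401, 2867 and 3345 against 1886, 2317 and 1727 CPM (0.70, adjusted p = 0.0494). Gm2464, Ccdc91, 4831426I19Rik and Arhgap42, together with Mir200b, Trio and regions of Angpt1 and Gpnmb, are the 8 members called in 3 of the 6 left-out fits, more than any other.

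Several called regions on different chromosomes moved in near parallel. Gm2464 and Ccdc91 lay within 15% of each other in every library. Regions of Robo1 and Mmp1b did so too, at 25.6, 39.5 and 46.5 against 11.4, 15.6 and 10.7 CPM in the former, and so did Akap9 with Itih2. Among decreases, regions of Gm17644, Ptprj, Gm7205 and Vmn2r-ps60 lay together between 170.6 and 332.9 CPM, falling by 0.65 to 0.68. A further set of 3, with Asrgl1 and Kcnb2, fell by 0.68 to 0.73. Sets of this kind make up 14 of the 73 called rows, and whether their reads share a sequence was not tested.

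Of the small RNA member regions, 92 match 20-base stretches of the table's tRNA sequences, on either strand, at 20 or more positions for 1 anticodon. Repeats of a stretch are counted again. Their median log2 fold change was 0.16, and 3 rose and none fell (background 3.01% higher). A region over Gm5146 (chr17:23616565-23693733), with stretches of a lysine (anticodon CTT) tRNA, gave 20.4, 21.1 and 21.9 against 12.2, 12.5 and 9.48 CPM (0.89, adjusted p = 0.0428). A region over Nfib (chr4:82151213-82444641), with those of a histidine GTG tRNA, gave 30.4, 37.7 and 38.9 against 16.4, 17.5 and 10.2 CPM (1.28, adjusted p = 0.0349). A region over Atp5h and Ict1, with an arginine CCG tRNA, rose by 1.49 (adjusted p = 0.0364). In the long table of the RNAome libraries 18 of the same 92 regions rose and none fell (background 0.721% higher), with a median of 0.61, while in the mRNA libraries 3 of 58 rose and 5 fell (background 9.95% higher and 9.89% lower). All 3 small RNA calls were lost without any 1 of the libraries other than control 8.5.16.

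No snoRNA entry was called: none of 86 passed in the small RNA table (median −0.10) and none of the 38 short snoRNA-holding regions (median −0.11). Cisplatin 8.4.3 was the lowest library for 48 of the 86.

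In the RNAome libraries 16 members rose and 81 fell with cisplatin, of 5915 tested (adjusted p under 0.05 over all 8081 rows). That is 1.64% against a background of 2.82%, with 1.51% higher and 1.31% lower. The filter left 1064 members untested. These calls too depend on single libraries and on scaling. Without control 8.4.16 there were 11 calls and without cisplatin 8.4.3 18, but without cisplatin 8.3.3 there were 367 (136 higher, 231 lower), without cisplatin 8.5.3 127 and without control 8.5.16 51. With library totals in place of TMM scaling 8 members fell and none rose. Scaled on microRNA rows none was called (316 had an unadjusted p under 0.05), and the median over all rows moved from 0.12 to 0.55. With equal rows counted once and microRNA and tRNA rows summed none was called either (596 had an unadjusted p under 0.05).

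Among the 81 decreases the groups did not overlap in 71, against 733 of all 5915 tested members. Control 8.4.16 was the highest library in 72 of the decreases, control 8.5.16 in 8 and control 8.6.16 in 1. The largest was an intron of AI314180 (chr4:58826954-58828130), at 3.63, 0.806 and 1.41 CPM with cisplatin and 102.1, 36.0 and 2.13 CPM in controls. It changed by −4.397 (SE 0.71, adjusted p = 3.73e-07), although control 8.6.16 lay among the cisplatin libraries. The region of Fam83f and Grap2 (chr15:80480729-80502276) gave 23.2, 18.5 and 21.1 against 825.9, 122.8 and 80.2 CPM (−4.03, adjusted p = 8.38e-07). Its cisplatin libraries lie close together, while its controls differ widely. Without control 8.4.16 its log2 fold change was −2.29 and not called (adjusted p = 0.0768).

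Only 4 of the 97 calls held in every left-out fit: AI314180, an intron of Fdps, and the transcripts Tchh and Rnf113a2. The Fdps intron, in the gene of farnesyl diphosphate synthase (chr3:88904754-88905783), gave 0.454, 1.61 and 0.705 against 15.1, 9.75 and 9.94 CPM (−3.71, adjusted p = 0.00027). Tchh, which encodes the hair follicle protein trichohyalin, gave 0.454, 0.806 and 2.82 against 20.1, 12.5 and 8.52 CPM (−3.66, adjusted p = 0.000346). Rnf113a2, a RING finger gene, gave 6.66, 5.24 and 2.82 against 68.5, 32.9 and 33.4 CPM (−3.12, adjusted p = 0.000273). For these last 3 every control lies above every cisplatin library. The Fdps and Tchh rows rest on few reads with cisplatin. Over the 97 calls, 6 decreases had 5 counts or fewer in every cisplatin library, and 2 increases had 5 or fewer in every control. In the mRNA libraries the log2 fold change was 0.32 for the Fdps intron, 0.00 for Tchh and 0.14 for Rnf113a2, none called.

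Hairpin entries leaned down in this table: 70 of 82 tested had a log2 fold change below 0, with a median of −0.73 against 0.12 over all rows, and 3 fell. The median was −0.72 with totals and −0.38 with scaling on microRNA rows, where 62 of 82 lay below 0 and none was called. Minus the median of all rows it was −0.85 with TMM, −0.92 with totals and −0.93 on microRNA rows. That subtraction takes out most of a change of scaling, so the closeness of these values adds no support. The 3 that fell with TMM were Mir26a-1, at 2.57, 5.64 and 3.52 against 46.0, 15.5 and 13.5 CPM (−2.70, adjusted p = 0.00492), Mir26a-2, at 2.27, 5.64 and 6.34 against 49.5, 16.8 and 14.2 CPM (−2.57, adjusted p = 0.00835), and Mir673, at 3.33, 3.22 and 5.64 against 25.5, 15.9 and 14.2 CPM (−2.24, adjusted p = 0.0335). None of the 3 was called without control 8.4.16 or without cisplatin 8.4.3. Both Mir26a genes give the same mature microRNA.
miR-26a-5p: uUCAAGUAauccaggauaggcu
miR-673-5p: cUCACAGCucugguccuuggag

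Mature miR-26a-5p in the same libraries gave 681.7, 1400 and 3256 against 1343, 2088 and 1616 CPM, a log2 fold change of 0.08 (adjusted p = 0.98). For miR-673-5p it was −0.55 (adjusted p = 0.795). In the small RNA libraries the Mir26a-1, Mir26a-2 and Mir673 entries changed by −0.14, −0.17 and −0.05, none called.

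The 16 increases were spread over the libraries, with cisplatin 8.5.3 highest in 8, 8.3.3 in 6 and 8.4.3 in 2. An intron of Dnajc3, an endoplasmic reticulum co-chaperone (chr14:119367364-119369321), was measured at 135.9, 162.0 and 206.5 against 28.6, 32.0 and 25.6 CPM (2.54, SE 0.62, adjusted p = 0.00353). An intron of Crtc3, a CREB coactivator, gave 6.66, 6.85 and 14.1 against 0.387, 1.83 and 1.42 CPM (2.83, adjusted p = 0.00929). Neto2, which encodes a kainate receptor auxiliary subunit, gave 8.78, 10.5 and 9.16 against 1.93, 1.52 and 1.42 CPM (2.50, adjusted p = 0.0241). The splicing factor Srsf5, as 3 equal rows, gave 10.4, 28.2 and 30.3 against 3.87, 3.35 and 7.1 CPM (2.29, adjusted p = 0.0285). A tRNA-matching region over Rgs1, with stretches of a lysine CTT tRNA, rose by 2.46 (adjusted p = 0.0296).

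One increase was an intron of Rian in the Dlk1-Dio3 locus (chr12:110889310-110890068) that holds a copy of SNORD113, at 12.7, 43.9 and 76.1 against 11.2, 8.54 and 12.1 CPM (2.05, adjusted p = 0.0419), called in 1 of the 6 left-out fits. Both boxes are present in its sequence (plus strand, NCBIM37, capitals as above).
SNORD113, chr12:110889634-110889706: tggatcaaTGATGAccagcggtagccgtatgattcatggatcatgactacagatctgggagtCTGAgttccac

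Its cisplatin libraries differed widely, and 8.3.3 lay only just above the highest control. Over the snoRNA entries as a whole cisplatin 8.5.3 was also most often the highest library: 90 of 100 had a log2 fold change above 0 (median 0.77, against 0.12 over all rows), cisplatin 8.5.3 was the highest for 76, and either control 8.4.16 (49) or cisplatin 8.3.3 (47) was the lowest for most. None of the 100 was called. Without cisplatin 8.3.3, 35 of 100 rose and the median was 1.14, in a fit where 136 of all 6033 tested members rose. Without cisplatin 8.5.3 no snoRNA entry rose and the median was 0.27. The 100 entries hold only 80 distinct sets of counts. With equal rows counted once and microRNA and tRNA rows summed, 67 of 78 lay above 0, with a median of 0.62 against 0.11 over all rows. Over the 100 entries the median was 0.77 with TMM, 0.61 with totals and 0.85 with scaling on microRNA rows. Minus the median of all rows it was 0.65, 0.41 and 0.30. Single libraries move with these values, and their part in them was not tested.

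**Figure D5:**
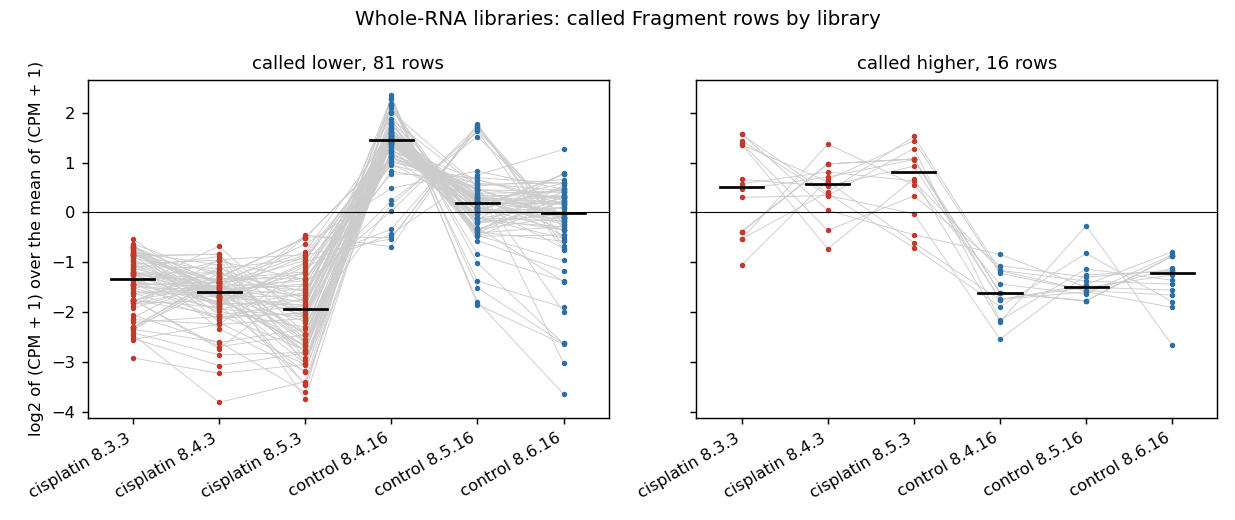
Each called member of the RNAome (whole-RNA) libraries as log2 of its (CPM + 1) divided by the mean of (CPM + 1) over the 6 libraries, with 1 grey line for each row, points for libraries and black bars for medians, for 81 decreases (left) and 16 increases (right). Control 8.4.16 is the highest library in 72 of the 81 decreases, and a few points of controls 8.5.16 and 8.6.16 lie as low as the cisplatin libraries.

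No member was called in both tables. Of the 73 small RNA calls 31 are members of the RNAome table, and of the 97 RNAome calls 14 are members of the small RNA table. Among simulated 4-fold changes, the same test recovered 78.5% in the small RNA table and 20.5% in the RNAome table. The simulation drew independent rows of the whole table, without a factor for composition and without a library that stands apart. Whether these shares hold for the members was not tested. The Mir99b entry, called in the small RNA libraries, lay at 69.3, 57.2 and 72.6 against 161.7, 243.3 and 84.5 CPM in the RNAome libraries, a log2 fold change of −1.30 (adjusted p = 0.317) where the small RNA libraries gave 0.96. Tested in 1 fit, the difference between these effects was −1.93 and not called (adjusted p = 0.13).

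For the 1685 members in both tables, the level was compared between library types in 1 fit of 12 libraries with treatment as covariate. It was higher in the RNAome libraries for 1072 and lower for 354 (84.6% called, against a background of 78.6%, with 37.4% higher and 41.3% lower). The 1685 were chosen by these same counts: a mean count of 10 in each table lets regions in from a mean of 0.964 CPM in the small RNA and 2.9 CPM in the RNAome libraries. Both sets of values are therefore a description, and nothing is read from the shares against the background. By class, with the same limit, 1008 of 1446 regions were higher and 228 lower (median log2 difference 2.39), while 65 of 87 hairpins were lower and 8 higher (−1.59), as were 42 of 65 snoRNA entries against 15 (−1.27). Of 35 short regions with a snoRNA 23 were lower and 5 higher (−1.27), and of 62 coding transcripts 33 were higher and 10 lower (1.03). With library totals in place of TMM scaling the median over all rows moved from −0.17 to −0.71. The class medians moved too, from 2.39 to 1.87 for regions, −1.59 to −2.11 for hairpins and −1.27 to −1.83 for snoRNA entries. Minus the median of all rows they were 2.56 and 2.58 for regions, −1.42 and −1.39 for hairpins and −1.10 and −1.12 for snoRNA entries. A change of scaling shifts all rows nearly alike, so these differences could hardly move and add no support.

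The cisplatin effect itself differed between the library types for 6 of the 1685 (assay by treatment interaction, adjusted p under 0.05), or 0.356%, against a background of 1.57% (0.817% higher and 0.755% lower). They are 3 equal rows of Abi2, an actin regulator, an intergenic region of chromosome 14 and regions of Alcam and Snx19. With the sample code as block the Alcam and Snx19 differences were not called (adjusted p = 0.109 and 0.0801), and each left-out fit lost the Alcam call. Abi2 gave 4.65, 6.37 and 8.45 against 2.65, 2.65 and 1.99 CPM in the small RNA libraries and 1.78, 1.68 and 2.01 against 13.8, 8.52 and 5.16 CPM in the RNAome libraries on the joint scale. The groups were separate in each library type and in opposite order, with an interaction of −3.76 (RNAome minus small RNA, adjusted p = 0.0067).

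Called members were also looked up in the long RNA tables of the same samples. Of the 45 small RNA increases 24 were tested in the mRNA table, where none rose and 5 fell (background 9.95% higher and 9.89% lower), and 17 in the RNAome long table, where 1 rose. Of the 28 decreases 15 were tested in the mRNA table, where 5 fell, and 19 in the RNAome long table, where 6 fell, and none rose in either. These rows are not all independent: with equal rows counted once the increases are 43 and the decreases 26, and the called histone rows are among the decreases. The 5 increases that fell in the mRNA table were the transcripts of Arhgap42 (−0.71, adjusted p = 0.000202), Akap9 (−0.51, adjusted p = 9.76e-05) and 3 of Abi2 (−0.27 to −0.28). Of the 81 RNAome decreases 33 were tested in the mRNA table, where 1 fell and 3 rose, and 19 in the RNAome long table, where none was called.

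Among factors that make, bind or degrade small RNAs, 16 of 34 tested in the mRNA libraries changed, 15 of them lower and 1 higher (background 37.8%, with 19.3% lower and 18.5% higher). Lin28a, which blocks let-7 maturation, gave 599.9, 534.5 and 553.1 against 791.0, 819.6 and 786.4 CPM (−0.51, adjusted p = 1.72e-06). Ago2, the slicing Argonaute, changed by −0.49 (adjusted p = 6.16e-05), Drosha, which cuts primary microRNAs, by −0.35 (6.63e-05), and Dicer1, which cuts the hairpin, by −0.30 (0.000363). Nop56 and Nop58, core proteins of box C/D snoRNPs, changed by −0.32 (7.44e-05) and −0.34 (0.000176), and Fbl, the methylase of the same particle, by −0.08 (0.392). Xrn2, a nuclear exonuclease, changed by −0.24 (0.00112). Tut7, which adds uridines to RNA ends, was the 1 that rose (0.25, adjusted p = 0.0122). The groups were separate for each of these called factors.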

How the data were processed

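Read counts were measured in 3 cisplatin and 3 control samples, each carried through small RNA, RNAome and mRNA libraries. Raw read counts per row were deposited by the authors, and the units and tools are taken from the submitters' processing notes, which name Bowtie, TopHat, edgeR and mm9 without roles. No source used here gives the counting rule, the annotation or the use of strand, and reads shared between copies or opposite strands could not be told apart. The small RNA libraries reuse the same 3 indexes in cisplatin and control samples, and the pooling of libraries is not stated in the sources used here. The members and lists were chosen with earlier results of these data known, and the histone, Dlk1-Dio3, short-region, tRNA-matching and parallel groupings, and the rows high in 1 library, after values were seen. They are described by counts and medians.

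Each table was fitted whole with edgeR 4.0.16 (R 4.3.3): TMM scaling, filterByExpr by group, the quasi-likelihood test without a replicate block, and Benjamini-Hochberg adjustment over all rows tested, with 0.05 as threshold. Called means past that threshold. SE was computed from the log2 fold change and F. CPM are scaled by TMM. Levels and effects between library types come from 1 fit of 12 libraries over rows in both tables. Single values per library used two-sided exact permutation (scipy 1.17.1). Named rows followed a rule: the 6 highest in CPM, the 6 largest called changes in each direction without overlap, the most abundant of each class, and called factors, to which rows described after their values were seen were added. On simulated data, 78.5% of 200 rows changed 4-fold among the 11715 small RNA rows were recovered, with 16 false calls of 173, and 20.5% among the 8081 RNAome rows, with 1 false call of 42. Alternatives were DESeq2 1.42.0, other scalings, no filter, a higher count minimum, a replicate block and each replicate left out. Region context comes from GENCODE vM1 on NCBIM37, microRNA names and sequences from RefSeq on GRCm38.p6. Members on chromosome 18 (88 and 185) are counted and not shown.

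The middle number of the sample codes recurs in both groups, but the deviations of such samples correlated at 0.194 and 0.105 in the small RNA table and −0.248 and 0.076 in the RNAome table, so it was taken as a shared number only.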

Additional observations from a re-analysis of the deposited data

Results flagged for a closer look

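For 6 members the cisplatin effect differed between the library types in the test of the difference itself (log2 fold change in RNAome libraries minus that in small RNA libraries, edgeR, adjusted over 6491 rows). Abi2 had −3.761 in each of its 3 equal rows (SE 0.56, adjusted p = 0.0067), with all cisplatin libraries above all controls in the small RNA libraries and below them in the RNAome libraries. It did not pass the expression filter in the RNAome table alone. The intergenic region chr14:50655176-50703388 had −3.406 (SE 0.54, adjusted p = 0.00766), with 3.98, 7.19 and 5.3 against 1.64, 2.78 and 1.42 CPM in the small RNA libraries and 10.3, 10.1 and 16.1 against 59.6, 34.1 and 39.5 CPM in the RNAome libraries. Its groups were separate in both, in opposite order.

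The Alcam region chr16:52453111-55225287, around a cell adhesion gene, had 1.918 (SE 0.44, adjusted p = 0.0488), with 13.8, 12.4 and 14.1 against 21.3, 19.8 and 23.5 CPM in the small RNA libraries and 649.4, 322.4 and 528.8 against 201.9, 167.7 and 269.1 CPM in the RNAome libraries. With the sample code as block it was not called (adjusted p = 0.109), nor in any of the 6 left-out fits (0.0949 to 0.227). An intron of Snx19, chr9:30239959-30240914, had 2.838 (SE 0.56, adjusted p = 0.0242), with 6.07, 10.6 and 12.1 against 1.1, 0.774 and 1.72 CPM in the RNAome libraries and overlapping groups in the small RNA libraries. With the sample code as block it was not called (adjusted p = 0.0801), and of the left-out fits it held in the one without cisplatin 8.3.3 alone (0.0263). Without cisplatin 8.4.3 none of the 6 was called (122 members had an unadjusted p under 0.05), and without control 8.4.16 3 were.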

How the results depend on the processing

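Counts of called members moved with most settings. In the small RNA libraries, 73 became 42 with a mean count minimum of 50, 15 (13 higher, 2 lower) with equal rows counted once and microRNA and tRNA rows summed, an alternative chosen after seeing the data, and 0 to 108 with each replicate left out. The split of 45 higher and 28 lower became 47 and 11 with scaling on microRNA rows and 50 and 20 with library totals. In the RNAome libraries, 97 became 8 with library totals, 0 with scaling on microRNA rows, 34 with the minimum of 50, 0 with equal rows once, and 11 to 367 with each replicate left out. The 6 differences of effect became 81 with DESeq2 (36 higher, 45 lower) and 0 to 11 with each replicate left out. The 1426 level differences ranged from 1380 to 1414 and the 16 factors from 13 to 20 with each replicate left out. The Xkr5 region chr8:18950974-18974939, at 3.63, 4.03 and 4.23 against 104.4, 5.18 and 0.71 CPM in the RNAome libraries, changed by −3.23, and from −3.757 to 0.241 with each replicate left out, the latter without control 8.4.16 (adjusted p = 0.999). All other called members kept their sign in each left-out fit. The cause of these moves was not tested.

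The middle number as replicate block gave 0 called members in the small RNA table (269 with an unadjusted p under 0.05), 1110 in the RNAome table (544 higher, 566 lower) and 22 factors. In these fits the cisplatin sample and the control sample whose middle number occurs in a single group do not inform the treatment effect. That effect rests only on the samples whose number recurs in both groups. Little replication is left, so no conclusion is drawn from these counts. With the sample code as block across library types, a pairing by the same RNA, 4 differences of effect and 1413 level differences were called.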
